A study of Mus musculus with 22 samples.

Results

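A set of 10 genes of amino acid stress, serine synthesis and amino acid transport were followed in fibroblasts sorted from mouse back skin. They were taken by symbol from a count table of 55414 genes, and all 10 members were found and had enough counts to be tested. They comprise 4 stress response genes (Asns, Trib3, Chac1 and Sesn2), 3 enzymes of serine synthesis (Phgdh, Psat1 and Psph) and 3 transporter subunits (Slc7a11, Slc7a5 and Slc3a2). Every mouse, Mus musculus, was operated on. In the EXP arm a hydrogel that swells was left under the skin to stretch it, and the CTRL arm had the operation without the hydrogel. Skin was taken on day 1 (4 CTRL and 5 EXP libraries), day 2 (3 and 3) and day 4 (4 and 3). Cells with CD31, CD45, CD117 or EpCAM were sorted out, and live cells with CD34 and PDGFRα were kept. The labels used here give no strain, age or sex, and do not say whether a library came from 1 animal or from several. P-values therefore measure only the spread between these libraries, which may be in part technical.

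When a cell lacks an amino acid, uncharged tRNA activates the kinase GCN2, which phosphorylates the initiation factor eIF2. Most translation then slows, while the messenger RNA of the transcription factor ATF4 is translated more. Other kinases feed into eIF2 as well, among them PERK, the sensor of the endoplasmic reticulum, so that the pathway is called the integrated stress response. ATF4 binds composite elements shared by C/EBP and ATF proteins and switches on genes of amino acid synthesis, uptake and tRNA charging. Serine is made from an intermediate of glycolysis in consecutive steps by PHGDH, PSAT1 and PSPH, and feeds glycine, one-carbon units and the collagen-rich matrix that skin fibroblasts secrete. SLC3A2 (4F2hc) is the shared heavy chain that brings the light chains SLC7A5 (LAT1, large neutral amino acids) and SLC7A11 (xCT, cystine in exchange for glutamate) to the cell surface.

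The promoter windows that hold the composite element are shown because these members moved with the expander on day 1. RefSeq (GRCm38.p6) windows of 300 bases, 250 before and 50 from the start of the gene, were matched by symbol for 9 of the 10 members. Slc7a5 had no entry. The letters TGATGNAA were searched on both strands. They stood in the windows of 4 members and in 1304 of all 32851 windows (3.97%). The windows of Sesn2, Phgdh, Psat1, Psph and Slc3a2 did not hold these letters, which says nothing about binding there. Of these, Sesn2, Psat1, Psph and Slc3a2 were also called higher on day 1. The letters thus did not set apart the members that rose. In Trib3 the match lay past the start, at base 15 of the transcript, and it is not printed. The other matches are printed along the gene's strand, 5′ to 3′, with the matching letters in capitals. TTGCATCA is a match read on the opposite strand.
Asns, chr6:7693210-7693272, minus strand: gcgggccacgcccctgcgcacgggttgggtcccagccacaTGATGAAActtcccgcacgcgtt
Chac1, chr2:119351009-119351096, plus strand: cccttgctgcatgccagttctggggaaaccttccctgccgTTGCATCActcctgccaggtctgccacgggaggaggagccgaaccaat
Slc7a11, chr3:50443632-50443719, minus strand: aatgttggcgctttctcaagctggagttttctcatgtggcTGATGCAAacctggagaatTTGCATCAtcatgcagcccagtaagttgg
The first base of the match lay 23 bases before the start in Asns and 193 bases before it in Chac1. Slc7a11 had 2 matches, on opposite strands, at 66 and 47 bases before the start. Windows with 2 or more matches made up 0.07% of all windows (23 of 32851).

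Library totals ran from 21461294 to 30210204 counts, so that 3 counts, taken as the smallest detectable level, came to 0.0993 to 0.140 CPM (the unit of level below, a count divided by its library's TMM-scaled total and put on one common scale). The 7 fibroblast markers (Pdgfra, Cd34, Col1a1, Col1a2, Col3a1, Dcn and Lum) were detected in every group. Their summed level was lower with the expander, at 210400 to 283600 CPM in CTRL and 93330 to 171000 CPM in EXP on day 1 and at 328200 to 408000 and 67960 to 170900 CPM on day 2. The ranges of day 4 met, at 267000 to 369000 CPM in CTRL and 83240 to 280000 CPM in EXP. This sum pools collagen and other matrix genes with the sorted surface markers, so it does not measure the share of fibroblasts. The haematopoietic list, with Ptprc at no more than 7 counts, summed to 43.5 to 91.5 CPM in CTRL and 37.5 to 54.3 CPM in EXP on day 1. Its sums of day 2 were lower in EXP (66.3 to 96.0 CPM) than in CTRL (114 to 165 CPM), and on day 4 the ranges of 71.3 to 144 and 108 to 149.6 CPM overlapped. Endothelial markers were higher in every EXP library than in CTRL on day 2 (5.15 to 12.9 against 0.597 to 3.71 CPM) and day 4 (28.1 to 57.4 against 5.71 to 14.3 CPM), and overlapped on day 1. Pericyte and smooth muscle sums were lower in every EXP library on day 1 (21.51 to 45.74 against 49.92 to 92.25 CPM). They were also lower on day 2 (30.05 to 52.93 against 88.73 to 97.72 CPM), as were keratinocyte sums (5.545 to 7.159 against 10.05 to 44.95 CPM). On the other days these sums overlapped. Mature adipocyte markers stayed at 2.39 to 6.82 CPM in the CTRL libraries of day 4 and reached 4.18, 123 and 386 CPM in EXP replicates 1 to 3. The share of mitochondrial counts was 0.818 to 0.925% in CTRL and 1.09 to 1.83% in EXP on day 1, 0.617 to 1.10% and 1.17 to 1.40% on day 2, and 0.677 to 1.02% and 0.948 to 1.26% on day 4. Apart from the groups, the libraries fell into 7 with a high and 15 with a low level of a set of 192 genes that moved together, none of them a member. The high side held 3 of 4 CTRL and 2 of 5 EXP libraries on day 1 and 2 of 4 CTRL and none of the EXP libraries on day 4. The split was fitted as a covariate, and within the high side on day 1 and the low side on day 4. The part of the marker and mitochondrial differences in the values below was not tested.

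Most members were called higher in EXP on day 1, and fewer were on the later days. The days differ in their numbers of libraries, so fewer calls alone do not show a smaller effect. Calls are at an adjusted p under 0.05 (edgeR quasi-likelihood F-test, Benjamini-Hochberg over 17554 tested genes). On day 1, 8 of the 10 members were called higher in EXP and none lower, where 28.6% of all tested genes were called, 13.9% higher and 14.7% lower. On day 2, 4 were called higher (Asns, Psat1, Psph and Slc7a11) and none lower, against 13.4% of all tested genes called, 7.72% higher and 5.71% lower. On day 4, 2 were called higher (Psat1 and Psph) and 1 lower (Slc3a2), against 22.5% called in all, 12.8% higher and 9.66% lower. The members' median log2 fold change was 1.16, 0.56 and -0.01 on the 3 days, and that of all tested genes was 0.02, 0.02 and 0.03. The members were chosen with earlier results of these data known. The contrast with all tested genes is therefore a description and no test of the list. No member was lower at an unadjusted p under 0.05 on day 1 or day 2, and DESeq2 called none lower there either. All EXP libraries lay above all CTRL libraries for 7 members on day 1 (11.7% of all tested genes), 5 on day 2 (20.9%) and 4 on day 4 (13.8%). They lay below for no member on day 1 (12.2%), for Slc3a2 on day 2 (18.4%) and for Trib3 on day 4 (11.8%). In sorted bulk RNA, fewer cells of a kind and less RNA per cell cannot be told apart.

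**Figure D1:**
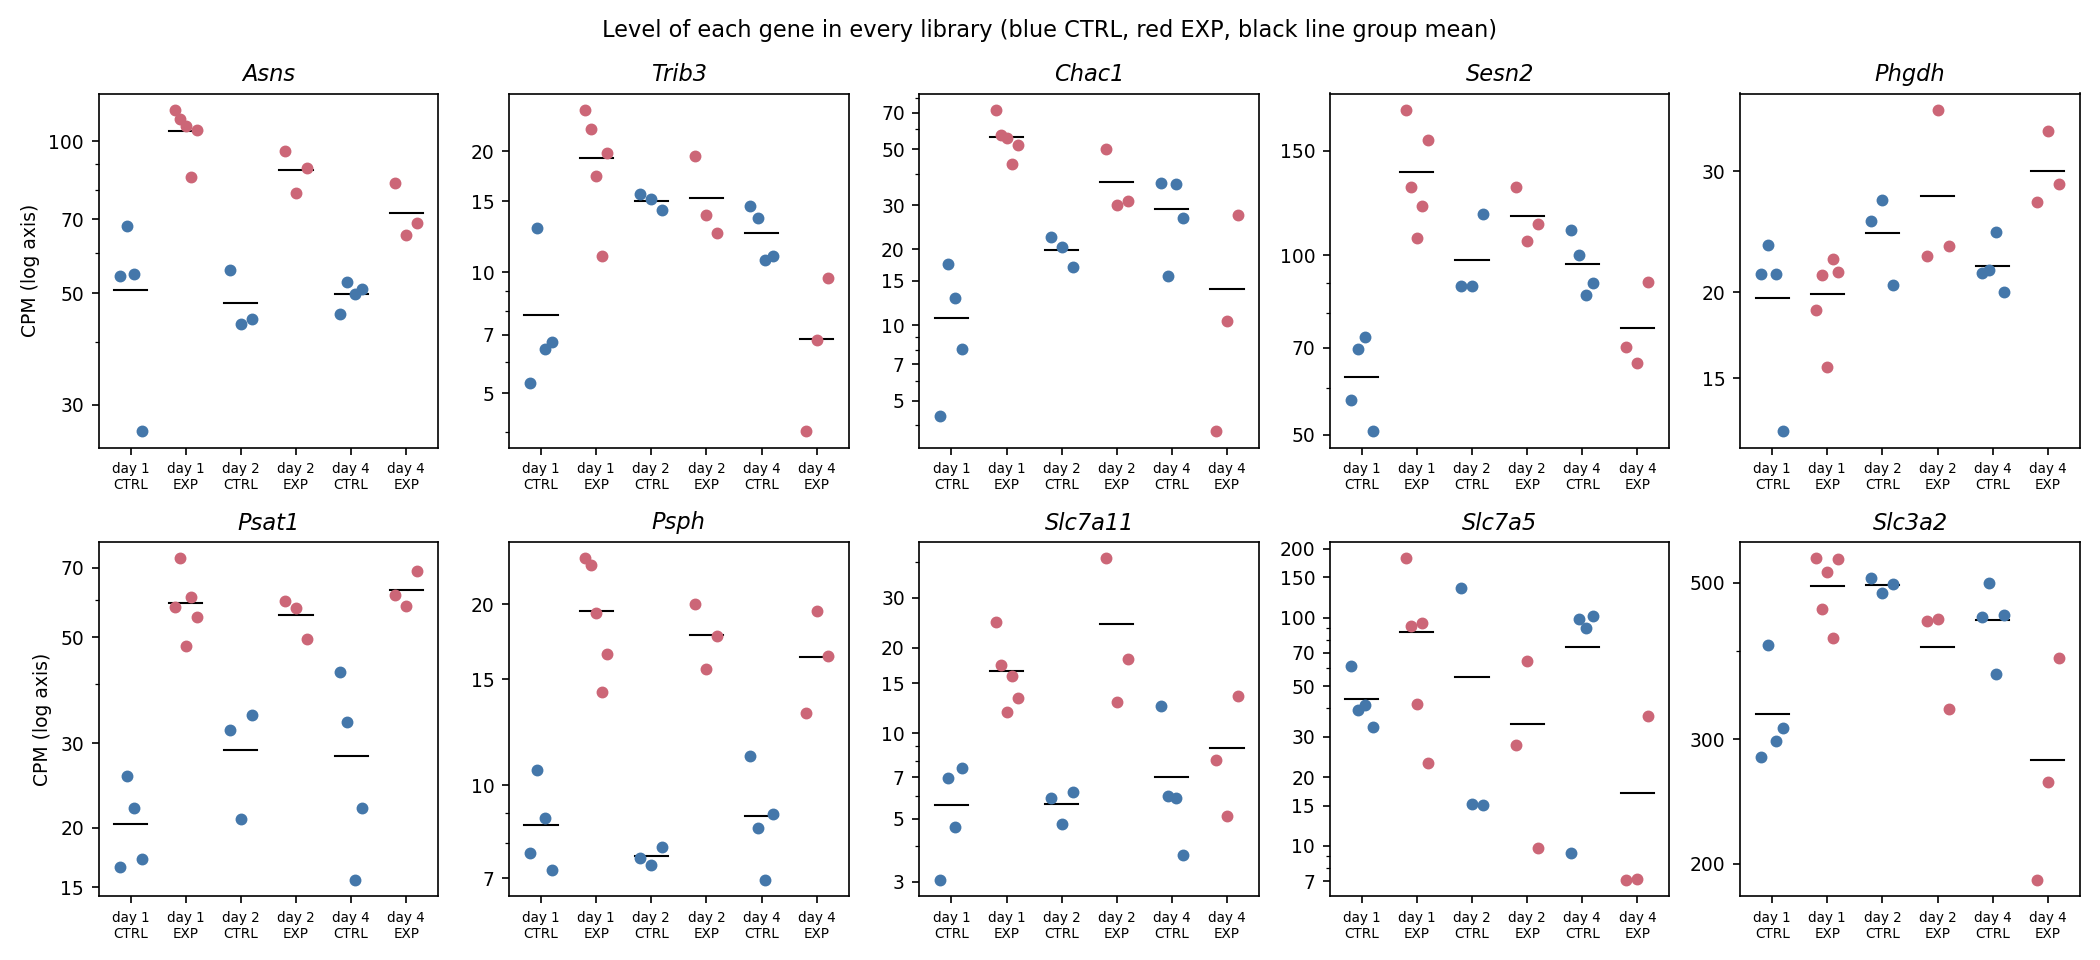
Level of the 10 genes in each of the 22 libraries, in CPM on a log axis with its own range per gene, by day and arm (blue CTRL, red EXP, black line the group mean). The EXP libraries of day 1 lie above every CTRL library of that day for Asns, Chac1, Sesn2, Psat1, Psph, Slc7a11 and Slc3a2, and Asns, Psat1 and Psph keep that separation on days 2 and 4.

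Among the stress genes, Chac1 showed the largest rise on day 1 of the 10 members. It encodes an enzyme that degrades glutathione. The CTRL libraries of day 1 held 4.37, 17.5, 12.9 and 8.04 CPM, and the EXP libraries 71.9, 57.0, 55.7, 43.7 and 52.0 CPM. The EXP libraries stood apart from the CTRL libraries, with a log2 fold change of 2.39 (SE 0.45, edgeR adjusted p 0.000684). On day 2 CTRL held 22.3, 20.4 and 17.0 CPM and EXP 50.4, 30.04 and 31.2 CPM, and the difference of 0.90 (SE 0.51, edgeR adjusted p 0.265) did not pass. It passed with library totals in place of TMM (1.40, edgeR adjusted p 0.0338) and with only that day's libraries (0.90, adjusted p 0.0191). Day 4 gave 36.6, 15.7, 36.5 and 26.6 CPM in CTRL and 3.78, 10.4 and 27.5 CPM in EXP. The EXP libraries then spread 7.26-fold among themselves and overlapped CTRL, and the difference of -1.06 (SE 0.49, edgeR adjusted p 0.125) did not pass. Without EXP replicate 3, which had the highest adipocyte and fibroblast marker sums of its group, it was -2.01 and passed (edgeR adjusted p 0.00520).

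Sesn2 encodes a stress-induced sestrin that holds mTORC1 down when leucine is low. Its CTRL libraries of day 1 held 57.1, 69.6, 72.9 and 50.6 CPM, and the EXP libraries 176, 130.2, 107, 121 and 156 CPM. All EXP libraries were above all CTRL libraries, and the log2 fold change was 1.14 (SE 0.17, edgeR adjusted p 5.66e-05), the smallest p among the members on that day. By day 4 the levels were 85.8 to 110.5 CPM in CTRL and 66.0 to 90.3 CPM in EXP. Differences of 0.24 and -0.36 on days 2 and 4 (SE 0.20 and 0.18) did not pass (edgeR adjusted p 0.445 and 0.170), though with library totals that of day 2 was 0.73 and passed (adjusted p 0.0123).

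Trib3, a pseudokinase that ATF4 and CHOP induce and that restrains them in turn, had on day 1 a CTRL level of 7.83 ± 3.42 CPM (SD, n = 4) against 19.3 ± 5.52 CPM (SD, n = 5) with the expander. It rose by 1.30 on the log2 scale (SE 0.28, edgeR adjusted p 0.00179), with 4 of 5 EXP libraries above every CTRL library and the remaining one inside their range. On day 2 the arms had nearly the same mean, 15.1 and 15.3 CPM, with a difference of 0.02 and a 95% confidence interval of -0.67 to 0.71. On day 4 the CTRL libraries held 14.7, 13.7, 10.7 and 10.95 CPM and the EXP libraries 4.02, 6.80 and 9.71 CPM. Every EXP library was then below every CTRL library, yet the difference of -0.87 (SE 0.32) did not pass (edgeR adjusted p 0.0531). Without EXP replicate 3 it was -1.19 and passed (edgeR adjusted p 0.0146), and it passed with DESeq2 (-0.88, adjusted p 0.0303).

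Asns, the enzyme that makes asparagine from aspartate and glutamine, kept its EXP libraries above CTRL on all 3 days. Levels on day 1 were 54.0, 67.9, 54.5 and 26.6 CPM in CTRL and 115.5, 110.4, 107, 85.1 and 105.4 CPM in EXP. The CTRL mean barely moved between days (50.8, 47.8 and 49.7 CPM), while the EXP mean went from 104.7 through 87.7 to 72.2 CPM. Log2 fold changes were 1.04, 0.88 and 0.54 on days 1, 2 and 4 (SE 0.19, 0.23 and 0.21), with edgeR adjusted p of 0.000374, 0.0135 and 0.0653. The day 2 call was lost without CTRL replicate 2 (adjusted p 0.0641), CTRL replicate 3 (0.0569) or EXP replicate 1 (0.0644). The day 4 difference passed with the library split as a covariate (0.71, edgeR adjusted p 0.0209) and with library totals (0.89, adjusted p 0.00713).

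**Figure D2:**
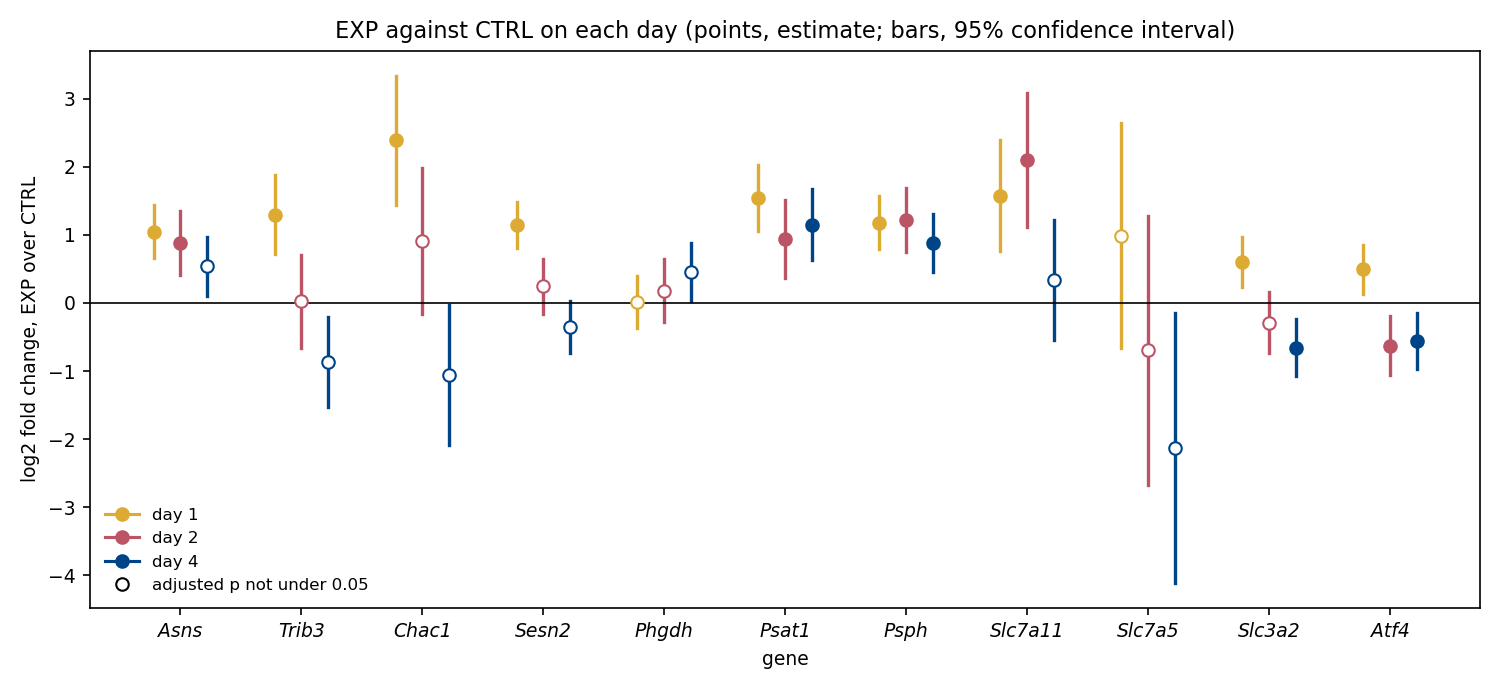
Log2 fold change of EXP over CTRL for the 10 genes and Atf4 on days 1, 2 and 4 (points, estimates; bars, 95% confidence intervals; open points, adjusted p not under 0.05). Chac1 goes from 2.39 on day 1 to -1.06 on day 4, whereas Psat1 (1.54 to 1.15) and Psph (1.18 to 0.88) stay above 0.

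The serine pathway was split by its steps. Psat1, the aminotransferase of the middle step, was higher in EXP on every day. Its level on day 1 was 16.6, 25.6, 22.03 and 17.2 CPM in CTRL and 57.9, 73.3, 48.0, 60.8 and 55.2 CPM in EXP. On day 4 the CTRL libraries varied between 15.5 and 42.3 CPM and the EXP libraries lay at 61.3, 58.1 and 68.8 CPM, again without overlap. Rises of 1.54, 0.93 and 1.15 on days 1, 2 and 4 (SE 0.23, 0.28 and 0.25) had edgeR adjusted p of 8.75e-05, 0.0281 and 0.00412. The call of day 2 was lost without CTRL replicate 2 (adjusted p 0.125), EXP replicate 1 (0.101) or EXP replicate 2 (0.0523).

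Psph, the phosphatase of the last step, had CTRL levels of 8.59 ± 1.49 (SD, n = 4), 7.61 ± 0.274 (SD, n = 3) and 8.89 ± 1.74 CPM (SD, n = 4) on days 1, 2 and 4. The EXP levels were 19.5 ± 4.17 (SD, n = 5), 17.8 ± 2.21 (SD, n = 3) and 16.3 ± 3.15 CPM (SD, n = 3). The arms did not overlap on any day, and the log2 fold changes were 1.18, 1.22 and 0.88 (SE 0.19, 0.23 and 0.21; edgeR adjusted p 0.000130, 0.00154 and 0.00614). Psat1 and Psph were thus called higher on all 3 days, as were 2.50% of all tested genes. Exons of Psph overlap those of Cct6a on the opposite strand. Without knowledge of the strand setting the Psph counts are uncertain. Cct6a, a subunit of a chaperonin, had far more counts and was also higher in EXP, by 0.80, 0.72 and 0.51 on the log2 scale. On day 4 the calls of both enzymes were lost when only the low side of the library split was compared, with 2 CTRL and 3 EXP libraries (0.73 for Psat1, edgeR adjusted p 0.195, and 0.73 for Psph, adjusted p 0.261). They were also lost when only the libraries of that day were fitted (adjusted p 0.0567 and 0.0613).

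Phgdh, the first and committed enzyme of the pathway, did not pass on any day with TMM scaling. On day 1 its libraries held 21.3, 23.5, 21.3 and 12.6 CPM in CTRL and 18.9, 21.2, 15.6, 22.3 and 21.4 CPM in EXP. The arms overlapped, and the log2 difference of 0.02 had a 95% confidence interval of -0.36 to 0.40 (edgeR adjusted p 0.956). On day 4 the CTRL libraries lay between 20.03 and 24.5 CPM and the EXP libraries at 27.1, 34.3 and 28.7 CPM. The arms did not overlap then, but the difference of 0.46 (SE 0.21, edgeR adjusted p 0.115) did not pass. With library totals it was 0.78 and passed (edgeR adjusted p 0.0107).

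Phgdh shares sequence with 20 annotated copies. The closest, the processed pseudogene Gm7901, matched 1597 of 1893 bases of the transcript at 98.7% identity and was given 461 to 1256 counts per library, while Phgdh itself had at least 328. Phgdh made up 30.8 to 43.9% of the sum over the gene and its copies. On day 1 that sum came to 49.3 ± 6.91 CPM (SD, n = 4) for CTRL, and to 48.7 ± 8.40 CPM (SD, n = 5) for EXP. The values of day 4 were 60.8 ± 9.96 CPM (SD, n = 4) for CTRL, and 75.9 ± 6.59 CPM (SD, n = 3) for EXP. Its log2 differences of -0.02, 0.36 and 0.32 did not pass (edgeR adjusted p 0.945, 0.201 and 0.184). Within EXP, however, the sum differed between days (edgeR adjusted p 0.0106), which Phgdh alone did not (0.0730). By DESeq2 Phgdh alone differed between those days too (adjusted p 0.0440). The sum was chosen after seeing the data.

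**Figure D3:**
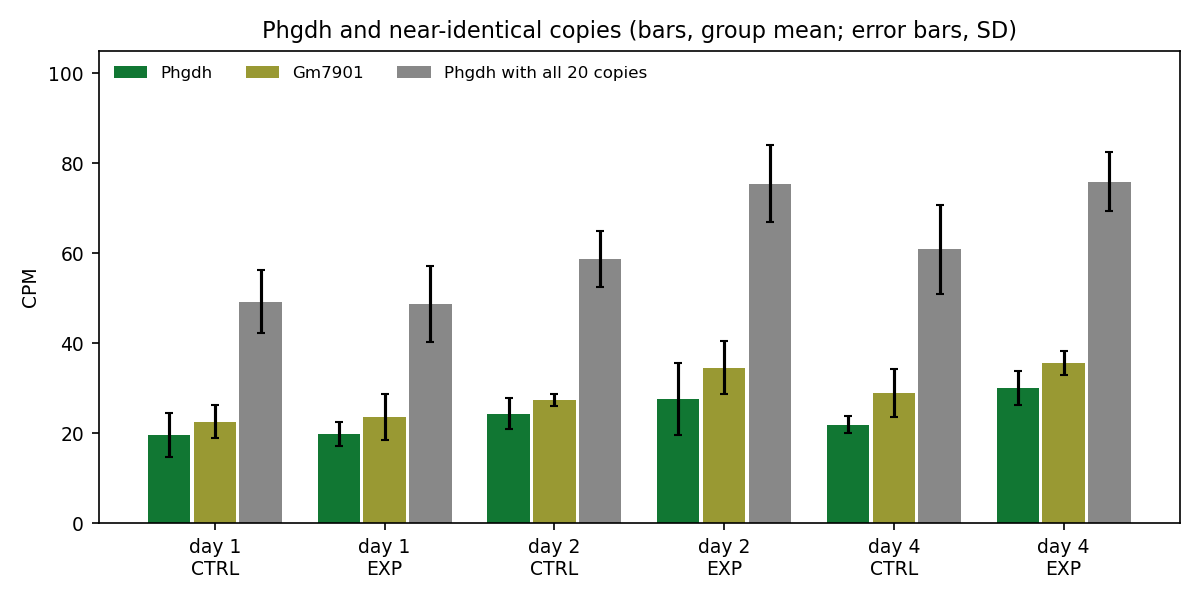
Mean level in CPM of Phgdh, of its pseudogene Gm7901 and of the sum over Phgdh and its 20 copies in the 6 groups (bars, group mean; error bars, SD over 3 to 5 libraries). On day 1 both arms have a sum near 49 CPM, and on day 4 it is 60.8 CPM in CTRL and 75.9 CPM in EXP.

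The transporter subunits each took their own course. Slc7a11, the xCT light chain, was at 3.05, 6.99, 4.69 and 7.58 CPM in CTRL and 24.7, 17.4, 11.9, 15.9 and 13.3 CPM in EXP on day 1. It stayed low in CTRL on day 2, at 5.92, 4.80 and 6.20 CPM, against 41.4, 12.9 and 18.3 CPM in EXP. No EXP library overlapped CTRL on these days, and EXP replicate 1 of day 2 stood above the rest. Rises of 1.58 and 2.10 on days 1 and 2 (SE 0.39 and 0.47) had edgeR adjusted p of 0.00474 and 0.00626. Without EXP replicate 1 the day 2 value was 1.47 and no longer passed (edgeR adjusted p 0.0640). On day 4 the arms overlapped, with means of 7.03 and 8.88 CPM and a difference of 0.34 (95% confidence interval -0.55 to 1.22). The longest annotated Slc7a11 transcript shares a stretch with tubulin genes, so a part of its counts may be shared.

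Slc3a2, the common heavy chain, had the highest level per kilobase of exon of the 10 genes. Its libraries of day 1 held 283, 409, 299 and 311 CPM in CTRL and 542, 459, 517, 418 and 540.1 CPM in EXP. EXP was above CTRL throughout, by 0.61 on the log2 scale (SE 0.18, edgeR adjusted p 0.0140). The order turned on day 2, when CTRL held 508, 483 and 498 CPM and EXP 442, 445 and 331 CPM, though the difference of -0.29 (SE 0.21, edgeR adjusted p 0.401) did not pass and was 0.18 when library totals were used without TMM. On day 4 CTRL held 448, 499, 371 and 450.4 CPM and EXP 189.6, 261 and 392 CPM. The groups overlapped only through EXP replicate 3, and Slc3a2 fell by 0.66 (SE 0.20, edgeR adjusted p 0.0256).

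The fall of Slc3a2 on day 4 depended on single libraries and on scaling. It was lost without CTRL replicate 2 (edgeR adjusted p 0.0569), EXP replicate 1 (0.166) or EXP replicate 2 (0.0829), and it was -0.39 with library totals (adjusted p 0.0949). It was also lost with the replicate block (adjusted p 0.0792), with only that day's libraries (0.136) and on the low side of the split (0.304). The rise on day 1 was lost among libraries of the high side alone (0.57, edgeR adjusted p 0.132), where 3 CTRL and 2 EXP libraries remained, and with the replicate block (0.58, adjusted p 0.0697).

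Slc7a5, the LAT1 light chain, varied widely within most groups. On day 1 CTRL lay between 33.1 and 61.2 CPM while EXP held 182, 92.3, 41.7, 94.8 and 23.0 CPM. On day 2 CTRL held 135, 15.2 and 15.1 CPM and EXP 27.7, 64.5 and 9.78 CPM. On day 4 CTRL held 9.28, 98.3, 89.7 and 101 CPM and EXP 7.08, 7.18 and 37.0 CPM. The arms overlapped on each day, and the highest library of a group exceeded the lowest up to 10.9-fold. Differences of 0.99, -0.70 and -2.13 did not pass (SE 0.79, 0.94 and 0.94; edgeR adjusted p 0.372, 0.684 and 0.111). Their 95% confidence intervals, -0.66 to 2.64, -2.67 to 1.28 and -4.11 to -0.15, leave room for large changes, in either direction on days 1 and 2. Slc7a5 passed on day 1 within the high side of the split (1.49, edgeR adjusted p 0.0197) and on day 4 without EXP replicate 3 (-3.38, adjusted p 0.0350).

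Levels of different genes were compared per kilobase of annotated exon. In CTRL on day 1 the order was Slc3a2 (92.2 CPM per kilobase), Asns (18.6), Sesn2 (18.0), Slc7a5 (11.8), Phgdh (7.90), Chac1 (6.54), Psat1 (4.79), Trib3 (3.69), Psph (1.99) and Slc7a11 (0.401). Neighbours from Asns to Sesn2 and from Phgdh to Trib3 lay within the spread of their libraries. In EXP on day 1 Chac1 had moved up to 34.2 CPM per kilobase, near Asns (38.3) and Sesn2 (39.7). On day 4 it stood at 8.47 in EXP, and Psat1, at 14.7, was then above it. The annotated exons of Slc7a11 span 13922 bases, and which of them its counts fell on was not tested. The Phgdh value leaves out counts given to its copies, so its place in the order is uncertain. In CTRL on day 1 Phgdh made up 31.5 to 43.9% of the sum with them.

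Whether the effect of the expander differed between days was tested jointly over the 3 days. It did for 4 of the 10 members, Trib3, Chac1, Sesn2 and Slc3a2 (edgeR adjusted p 0.00882, 0.0101, 0.00243 and 0.0132), against 8.82% of all tested genes. These 4 calls held without any 1 of the 22 libraries, while with the replicate block those of Chac1 (adjusted p 0.0514) and Slc3a2 (0.0938) were lost. The effect of day 4 minus that of day 1 was -3.45 for Chac1 (SE 0.67), -2.17 for Trib3 (SE 0.43), -1.50 for Sesn2 (SE 0.25) and -1.26 for Slc3a2 (SE 0.27), all on the log2 scale. For Asns, Psat1 and Psph it was -0.51 (SE 0.28), -0.38 (SE 0.34) and -0.30 (SE 0.28), and the test over days did not pass (adjusted p 0.441, 0.467 and 0.661). Slc7a11 (adjusted p 0.145), Slc7a5 (0.215) and Phgdh (0.526) did not pass either. All 4 day-dependent members were called higher on day 1 and estimated lower on day 4.

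The days were also compared within each arm. Day may also be a processing batch, which the labels used here do not settle. Changes over days within an arm cannot be told apart from it. Within EXP the same 4 members differed between days, against 14.3% of all tested genes, with log2 changes from day 1 to day 4 of -2.02 (Chac1), -1.49 (Trib3), -0.87 (Sesn2) and -0.82 (Slc3a2). Without EXP replicate 1 of day 4 only 1 member was called over the days of EXP, and without replicate 2 it was 2. DESeq2 called 6, with Phgdh (DESeq2 adjusted p 0.0440) and Slc7a11 (0.0428) added. Within CTRL no member was called over days, against 0.291% of all tested genes. At an unadjusted p under 0.05 edgeR had the same 4 members in CTRL, and DESeq2 called Sesn2 (adjusted p 0.0194). Their CTRL estimates from day 1 to day 4 were 1.43 (SE 0.45), 0.67 (SE 0.29), 0.63 (SE 0.17) and 0.44 (SE 0.19), in the order given. The EXP libraries of day 4 held 3.78, 10.4 and 27.5 CPM of Chac1 and 189.6, 261 and 392 CPM of Slc3a2 where their adipocyte marker sums were 4.18, 123 and 386 CPM. Their fibroblast marker sums rose in the same order (83240, 162800 and 280000 CPM), as did their haematopoietic sums (71.3, 107.6 and 143.6 CPM). Melanocyte and mast cell, pericyte and Schwann sums rose in that order too. Skeletal muscle sums fell, and keratinocyte and endothelial sums did neither. The part of these marker differences in the values was not tested.

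Atf4, the transcription factor above these genes, was called higher in EXP on day 1 and lower on days 2 and 4 at the RNA level. On day 1 its level was 221.5 ± 27.9 CPM (SD, n = 4) for CTRL, with 261 CPM the highest, and the EXP libraries held 288, 296, 394, 285 and 295 CPM. On day 2 the arms had changed places, with 329, 394 and 335 CPM in CTRL and 223, 257 and 202 CPM in EXP. The groups did not overlap on these days, and the log2 fold changes were 0.49 (SE 0.17, edgeR adjusted p 0.0365) and -0.63 (SE 0.21, adjusted p 0.0475). Day 4 gave -0.56 (SE 0.20, adjusted p 0.0441), with overlapping libraries. The call of day 1 was lost without CTRL replicate 1 (0.0972), 2 (0.0906) or 3 (0.0749) or EXP replicate 3 (0.0993), that of day 2 without any 1 of its 6 libraries, and that of day 4 without 5 of its 7 libraries in turn. With library totals in place of TMM the values of days 2 and 4 were -0.17 (edgeR adjusted p 0.570) and -0.28 (0.272). The effect differed between days (adjusted p 0.0134), which held without each of the 22 libraries. With the replicate block that test (adjusted p 0.0681) and the calls of all 3 days were lost (0.0760, 0.0838 and 0.0830). ATF4 acts mainly through its translation, which RNA does not show. Ddit3, which encodes CHOP, was at 25.4 CPM in CTRL and 26.3 CPM in EXP on day 1, and its differences of 0.05, -0.58 and -0.39 did not pass (adjusted p 0.864, 0.108 and 0.210). Exons of Ddit3 overlap Mars on the opposite strand.

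Other genes that ATF4 is known to induce were called in both directions on each day. Of 22 such genes, 5 were called higher and 5 lower on day 1, 2 and 8 on day 2, and 1 and 7 on day 4. Beside 28.6, 13.4 and 22.5% of all tested genes, these are 45.5, 45.5 and 36.4% of the list. The median log2 fold change of the list was -0.11, -0.59 and -0.48. With library totals in place of TMM the counts of day 2 and day 4 were 4 higher and 4 lower each, and the median of day 1 was 0.09. Pycr1, which makes proline, had on day 1 a CTRL level of 39.96 ± 14.1 CPM (SD, n = 4), and fell in EXP to 5.78 ± 3.66 CPM (SD, n = 5), which on the log2 scale was -2.79 (edgeR adjusted p 3.06e-05). Aldh18a1, the preceding enzyme on the way to proline, fell by 1.33 on that day (adjusted p 1.33e-05). Atf3, an immediate stress factor, went from 1495 CPM in CTRL to 290 CPM in EXP on day 2, a log2 fold change of -2.37 (adjusted p 6.04e-05). Gdf15, a secreted stress hormone, fell by 1.73 on day 4 (adjusted p 0.000433). Ddit4, an inhibitor of mTORC1, rose by 1.56 on day 1 (adjusted p 0.00704), and Stc2, a secreted glycoprotein, rose by 1.99 on day 2 (adjusted p 0.00402).

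**Figure D4:**
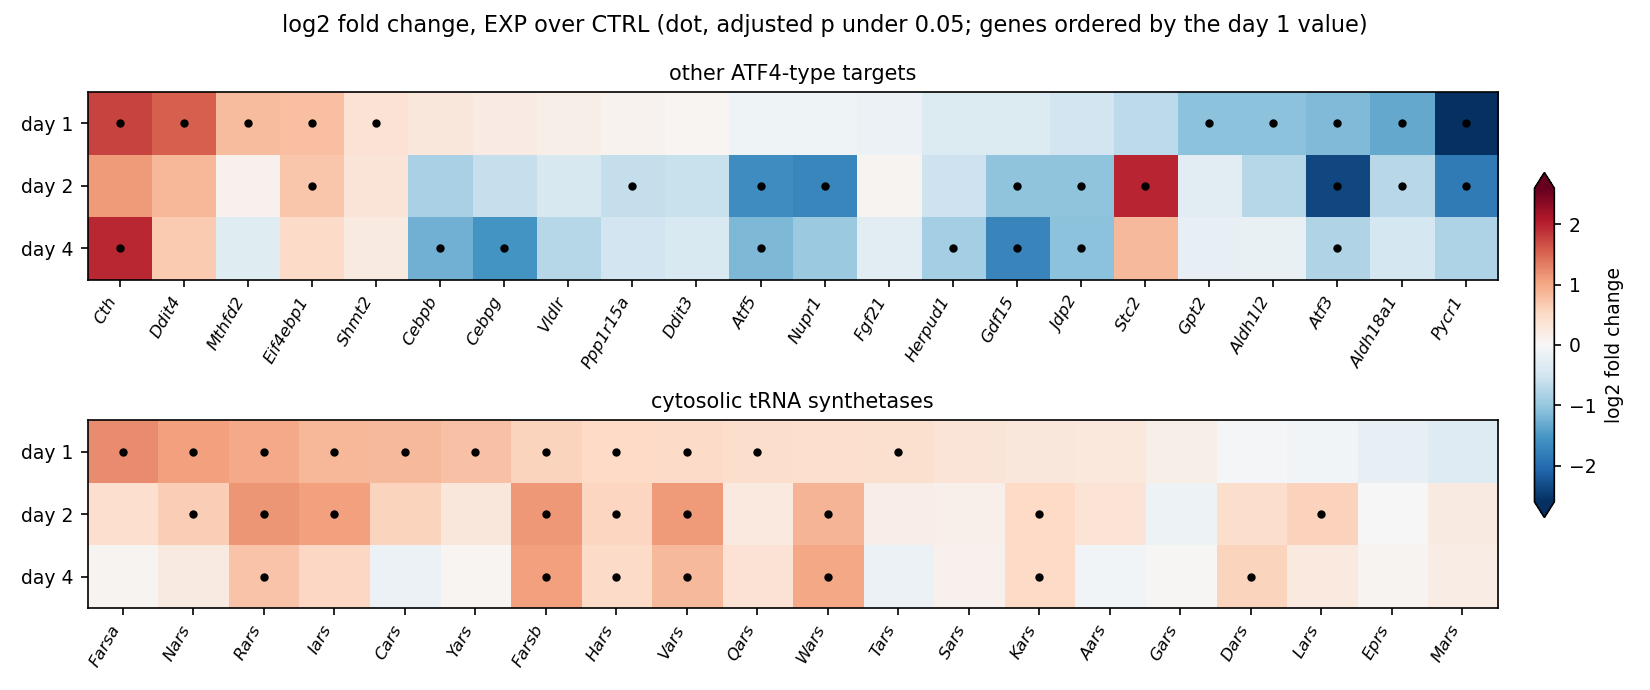
Log2 fold change of EXP over CTRL on days 1, 2 and 4 for 22 other ATF4-type targets (top) and 20 cytosolic tRNA synthetases (bottom), ordered by the day 1 value, in colour (dot, adjusted p under 0.05). The upper row of day 1 runs from Cth at 1.77 to Pycr1 at -2.79 with 5 calls on each side, while all calls among the synthetases are toward EXP.

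The enzymes that charge tRNA with amino acids were called in 1 direction where they were called at all. Of 20 cytosolic tRNA synthetases, 11 were called higher on day 1, 9 on day 2 and 7 on day 4, and none was called lower by edgeR or DESeq2 or reached an unadjusted p under 0.05 in that direction. The calls made up 55, 45 and 35% of the list, where 13.9, 7.72 and 12.8% of all tested genes were called higher. The 9, 11 and 13 synthetases not called on the 3 days included estimates down to -0.34, -0.13 and -0.16. The median log2 fold change of the list was 0.44, 0.49 and 0.24. Nars, which charges asparagine, went from 223 to 464 CPM on day 1 (1.06, SE 0.17, edgeR adjusted p 0.000122). Farsa, a phenylalanine synthetase subunit, rose by 1.23 on day 1 (adjusted p 4.35e-05), and its differences of 0.43 and 0.07 on the later days did not pass. Its effect differed between days (adjusted p 0.0167). Rars, for arginine, rose by 0.99, 1.15 and 0.75 on the 3 days (adjusted p 2.97e-05, 0.000183 and 0.00202). Wars, for tryptophan, rose by 0.88 and 1.01 on days 2 and 4 (adjusted p 0.0101 and 0.00204).

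Upstream components of the response were examined as a list of 15, which includes Atf4. Of these, 7 were called higher and none lower on day 1, 3 and 1 on day 2, and 4 and 2 on day 4. Beside 28.6, 13.4 and 22.5% of all tested genes, 46.7, 26.7 and 40% of the list were called. At an unadjusted p under 0.05 edgeR had none lower on day 1, and DESeq2 called none lower there. Eif2s1, the eIF2 subunit that the kinases phosphorylate, rose by 0.97, 0.90 and 0.70 (edgeR adjusted p 0.000212, 0.00505 and 0.0101). Eif2b3, a subunit of the exchange factor eIF2B, rose by 1.01 on day 1 and 1.17 on day 4 (adjusted p 0.00256 and 0.00404). Eif2ak4, which encodes GCN2, went from 6.76 to 11.4 CPM on day 1 (0.76, SE 0.26, adjusted p 0.0314). Eif2ak3, which encodes PERK, fell from 18.3 to 7.41 CPM on day 4 (-1.30, SE 0.31, adjusted p 0.00615). Its exons overlap a gene on the opposite strand.

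**Figure D5:**
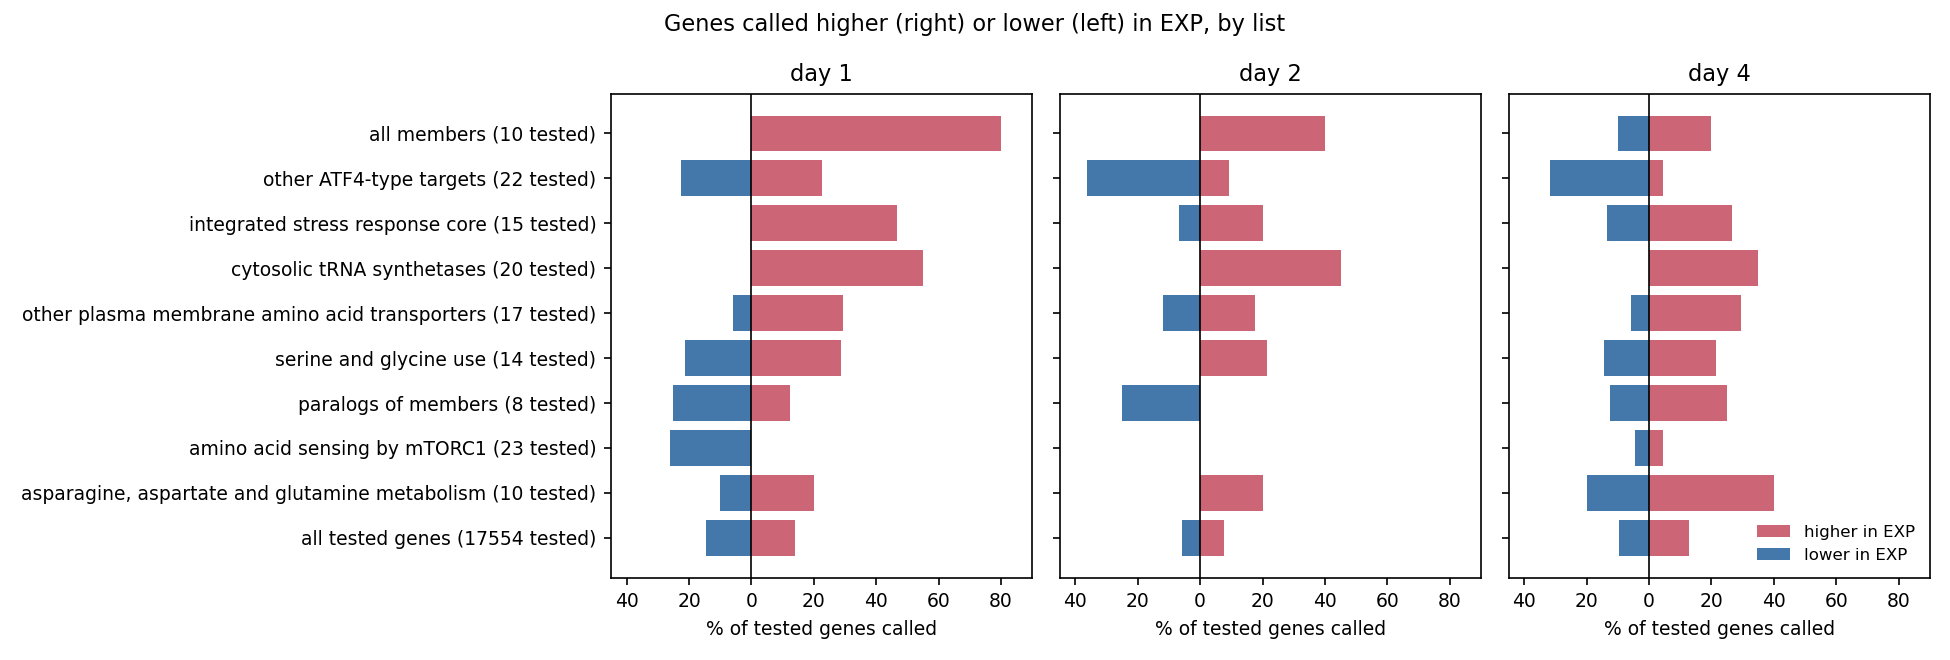
Share of tested genes called higher (right, red) or lower (left, blue) in EXP on each day, in percent, for the 10 members, 8 other lists and all 17554 tested genes. On day 1 80% of the members and 55% of the synthetases are called higher, beside 13.9% of all tested genes.

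Among 17 tested amino acid transporters of the plasma membrane other than the members, 5 were called higher and 1 lower on day 1, 3 and 2 on day 2, and 5 and 1 on day 4. These are 35.3, 29.4 and 35.3% of the list, where 28.6, 13.4 and 22.5% of all tested genes were called. Slc6a6, the taurine transporter, went from 32.3 to 96.6 CPM on day 1, from 32.1 to 133 CPM on day 2 and from 31.0 to 81.3 CPM on day 4. These are rises of 1.58, 2.04 and 1.39 (edgeR adjusted p 0.000374, 0.000841 and 0.00426). Slc7a6, another light chain that pairs with Slc3a2, rose by 1.09 on day 1 (adjusted p 6.05e-05). Slc7a2, a carrier of cationic amino acids, rose by 1.11 on day 2 (adjusted p 0.00512).

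The genes most alike to 4 members over the 22 libraries were ranked by Pearson correlation of log2 CPM among 9820 genes. These are descriptions, since the libraries share the group differences. Asns was most like Sod2 (0.912), Nedd4l (0.909) and P2ry2 (0.902). Slc7a11 was most like M6pr-ps (0.880), Hspa9 (0.878) and Bcat1 (0.870). Slc7a5 came closest to Pithd1 (0.757), Usp6nl (0.755) and Kcmf1 (0.755), and nearly as close after group means were removed (0.715, 0.685 and 0.636). Phgdh had its pseudogene Gm7901 first (0.847), followed at a distance by Ttyh2 (0.651) and Chfr (0.610). After group means were removed, the correlations of Slc7a11 were 0.706, 0.708 and 0.698, in the order given. Those of Asns were 0.544, 0.738 and 0.534, and those of Phgdh 0.725, 0.319 and 0.435.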

How the data were processed

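The authors deposited raw read counts per gene and library, without normalization, in a table of Ensembl identifiers. Per the submitters' processing notes Trimmomatic and genome build mm39 were used. The aligner, counter, annotation release and strand setting are not given in the sources used here. GENCODE M21 named 52081 of 55414 identifiers and gave exon lengths and overlaps.

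Counts were analysed with edgeR 4.0.16 in R 4.3.3. Genes were filtered by filterByExpr (minimum count 10), libraries scaled by TMM, and a quasi-likelihood model with a mean per group was fitted to all 22 libraries together (17554 genes, 16 residual degrees of freedom). Benjamini-Hochberg adjustment ran over all tested genes of a comparison. CPM use TMM-scaled totals, and log2 CPM a prior count of 2. PCR reads lack molecular identifiers here, so the floor of 3 counts covers no more than counting error. The fit was tested on simulated counts in which 193 of 17066 genes changed 2-fold or 4-fold on day 1. It recovered 26.5% of the 2-fold and 87.4% of the 4-fold changes, and 8 of 117 calls were false. In the data 28.6% of tested genes were called on day 1, so the adjustment was stricter in the simulation. No change was simulated on days 2 and 4. The recovered shares are therefore not those of the data. A difference that did not pass does not show that a gene was unchanged.

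The members and lists were chosen with earlier results of these data known. From each list the rule took, per day, up to 2 called genes with the largest rise and 2 with the largest fall. The rule gave 60 calls. Of these 33 held when any 1 library was left out, and the text names mainly those. Eif2ak4 was added after its values were seen.

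Alternatives were DESeq2 1.42.0 as a test or for size factors, library totals without TMM, no low-count filter and fits to 1 day. Others were the library split as a covariate or 1 side of it, a replicate block, and leaving out each library. The split used genes correlated over 0.9 with Rnf10 after group means were removed.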

Additional observations from a re-analysis of the deposited data

Results flagged for a closer look

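The effect of the expander differed between days by the joint edgeR test for Trib3 (adjusted p 0.00882), Chac1 (0.0101), Sesn2 (0.00243), Slc3a2 (0.0132) and Atf4 (0.0134). For each the estimate was above 0 on day 1 and below 0 on day 4.

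Of 36 groups of 4 or 5 libraries in which a library could be set against the rest, 2 held a value far from the others, where chance gives about 1.8. Slc7a5 was at 9.28 CPM in CTRL replicate 1 of day 4, with the other 3 libraries between 89.7 and 101 CPM. Atf4 was at 394 CPM in EXP replicate 3 of day 1, with the other 4 libraries between 285 and 296 CPM.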

How the results depend on the processing

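On day 1, 8 members were called higher in each setting except the replicate block (7), and none lower. They were not the same 8 on the high side of the split. There Slc3a2 was lost (edgeR adjusted p 0.132) and Slc7a5 was called (0.0197). Library totals without TMM moved the median log2 fold change of all tested genes to 0.21, 0.49 and 0.36 on days 1, 2 and 4, and the share of calls that were higher from 48.7, 57.5 and 57.0% to 66.2, 90.5 and 80.8%. Genes called on day 2 went from 2359 to 4631 with totals, and to between 891 and 2177 when a library was left out (891 without EXP replicate 1). Members called higher on day 2 then numbered 1 to 4, with Psph alone kept without EXP replicate 1, and were 6 with totals and 5 with that day's libraries alone. Genes called on day 1 fell from 5017 to 2210 on the high side of the split. On day 4 the count of 3943 became 1128 with only that day's libraries and 1 on the low side of the split, and 1633 to 5011 without a library (1633 without EXP replicate 1). Members called higher on day 4 were 4 with totals, 0 on the low side and 0 with that day alone. The single member called lower became 2 with DESeq2, 0 with totals, 0 on the low side, 0 with that day alone and 0 with the replicate block, and ranged from 0 to 4 without a library (4 without EXP replicate 3). Genes with a day-dependent effect (1549) were 2606 with DESeq2, 401 with the block and 898 to 2572 without a library. Genes that differed over days in EXP (2502) were 1432 with the block and 1367 to 3415 without a library. Members called over those days were 6 with DESeq2, 2 with the block and 1 to 5 without a library. In CTRL the 51 genes became 519 with DESeq2, 163 with totals, 29 with the split as covariate, 19 with the block and 5 to 92 without a library, and DESeq2 called 1 member.

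Same-numbered libraries were not treated as pairs in the main fit. After group means were removed, 3 of 10 such pairs correlated above 0.1. On day 4 CTRL replicates 1, 2 and 3 each correlated best with the EXP library of the same number (0.08, 0.146 and 0.109). CTRL replicate 1 of day 1 did so too (0.164), and the other pairs of days 1 and 2 did not. Whether libraries were paired was thus not settled. With the replicate block 2 members kept a day-dependent effect, Sesn2 (adjusted p 0.0484) and Trib3 (0.0471).

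Small differences changed sign. Phgdh on day 1 was -0.17 on the high side, -0.0175 summed with its copies and -0.15 to 0.11 without a library, and on day 2 -0.0922 to 0.31 without a library. Ddit3 on day 1 was -0.0495 on the high side and -0.0388 to 0.13 without a library. Slc3a2 on day 2 was 0.18 with totals. Slc7a11 on day 4 was -0.0571 on the low side and -0.0832 to 0.77 without a library. Slc7a5 on day 2 ranged from -1.57 to 1.16 without a library. Trib3 on day 2 was -0.00251 with the block and -0.18 to 0.13 without a library. The causes were not tested.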

Other observations

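Genes that use serine and glycine were described as a list. Of 14 tested, 4 were called higher and 3 lower in EXP on day 1, 3 and none on day 2, and 3 and 2 on day 4, where 28.6, 13.4 and 22.5% of all tested genes were called. At an unadjusted p under 0.05 edgeR had 1 lower on day 2, and DESeq2 called none lower there. Gldc, the glycine decarboxylase of the mitochondrial cleavage system, stood out on the later days. On day 4 it was at 1.26, 0.472, 0.461 and 1.26 CPM in CTRL and 30.1, 31.9 and 10.2 CPM in EXP, without overlap, a rise of 4.81 on the log2 scale (SE 0.73, edgeR adjusted p 0.000408). On day 2 the rise was 3.42 (SE 0.80, adjusted p 0.00814), and on day 1 the difference of 0.49 did not pass (adjusted p 0.559). Srr, which makes D-serine, fell by 0.99 on day 1 (adjusted p 0.00229), and its exons overlap Smg6 and Tsr1 on the opposite strand.

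Slc38a4, a transporter of neutral amino acids, was near the floor in CTRL on day 4 (0 to 11 counts per library) and at 39 to 608 counts in EXP (adjusted p 0.000975). Its EXP libraries of that day held 16.3, 9.93 and 1.39 CPM, where adipocyte marker sums were 4.18, 123 and 386 CPM. Fibroblast marker sums in these libraries were 83240, 162800 and 280000 CPM.

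Sesn1, the paralog of Sesn2, was lower with the expander on all 3 days. It fell by 0.83 on day 1 (edgeR adjusted p 0.0204, lost without CTRL replicate 1, CTRL replicate 3 or EXP replicate 4). It fell by 1.87 on day 2 (edgeR adjusted p 0.00101) and by 1.61 on day 4 (adjusted p 0.00175), from 27.4 CPM in CTRL to 8.99 CPM in EXP on day 4. Of the 8 tested paralogs of members, 1 was called higher and 2 lower on day 1, none and 2 on day 2, and 2 and 1 on day 4. Beside 28.6, 13.4 and 22.5% of all tested genes, these are 37.5, 25 and 37.5% of the paralogs. For day 2 edgeR had 2 higher at an unadjusted p under 0.05, and DESeq2 called 2 higher.

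Among 23 genes of amino acid sensing by mTORC1, 6 were called lower and none higher on day 1, none on day 2, and 1 in each direction on day 4. The 26.1, 0 and 8.7% called were below the 28.6, 13.4 and 22.5% of all tested genes. With DESeq2 1 was called higher on day 1 and none on day 2, and an unadjusted p under 0.05 gave 1 higher on day 1 and 2 in each direction on day 2. With library totals the counts were 4 higher and 3 lower on day 1, and 5 higher and none lower on days 2 and 4. Castor1, the arginine sensor, fell by 1.40 on day 1 (edgeR adjusted p 9.56e-05), and Wdr24, a subunit of the GATOR complex, fell by 1.11 (adjusted p 0.00101).

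Of 10 genes of asparagine, aspartate and glutamine metabolism, 2 were called higher and 1 lower on day 1, 2 and none on day 2, and 4 and 2 on day 4. Beside 28.6, 13.4 and 22.5% of all tested genes, these are 30, 20 and 60% of the list. For day 2 edgeR had 2 lower at an unadjusted p under 0.05, and DESeq2 called 1 lower. Got2, the mitochondrial aspartate aminotransferase, rose by 0.56, 1.04 and 0.70 on the 3 days (edgeR adjusted p 0.0152, 0.00233 and 0.0115), with a gene on the opposite strand overlapping its exons.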
